A study of Mus musculus with 36 samples.

Results

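This section describes the nuclear genes that encode the machinery copying and transcribing mitochondrial DNA, in C2C12 myotubes with and without *Tug1* knockdown, before and after electrical pulse stimulation. The members were found by gene name, and all 10 (*Polrmt*, *Tfb1m*, *Tfb2m*, *Tfam*, *Mterf2*, *Mterf4*, *Polg*, *Polg2*, *Twnk* and *Ssbp1*) were present among the 55416 genes of the count matrix. All 10 passed the filter on low values, a level of 1 RPM (reads scaled to sequencing depth) or more in 12 or more of the 36 libraries, as did 13995 genes in all. C2C12 is an established line of mouse myoblasts that fuse into myotubes when serum is lowered. All 36 wells held day 4 myotubes given an antisense locked nucleic acid (LNA) on day 3, either a negative control LNA (control) or one against the long non-coding RNA *Tug1* (Tug1 KD). Wells were left unstimulated with electrodes in the medium (Rest), stimulated for 3 h and harvested at once (EPS 0h), or harvested after 3 h of recovery (EPS 3h), with 6 libraries in each of the 6 groups. The wells came from 2 independent experiments on this cell line, so the tests measure the spread between wells. No unstimulated wells of the later harvest were analysed here, so recovery and time in culture cannot be told apart at EPS 3h.

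Mitochondrial DNA is a small circular genome that encodes core subunits of the respiratory chain together with the ribosomal and transfer RNAs needed to translate them. POLRMT is its single RNA polymerase; it starts transcription with TFAM, which bends and packages the DNA, and TFB2M, which opens the promoter. Replication uses the polymerase POLG with its accessory subunit POLG2, the helicase Twinkle (encoded by *Twnk*) and the single-strand binding protein SSBP1, and the transcript made by POLRMT serves as primer.

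Total counts per library ranged from 17005079 to 24181167. All 8 myotube markers were expressed, with a summed level between 10310 and 15370 RPM in every library. The knockdown was partial: *Tug1* was lower in Tug1 KD by a log2FC of -0.83 at Rest, -0.57 straight after EPS and -0.51 after recovery, and its level rose with EPS in both arms. Within 5 of the 6 groups the first principal component parted replicates 1 to 3 from replicates 4 to 6, so values are also given within each set. The summed level of 4 markers of undifferentiated myoblasts (*Pax7*, *Myf5*, *Id1*, *Id3*, none at 0) fell from a median of 202.9 RPM in control at Rest to 65.65 RPM at EPS 3h and was 137.9 RPM in Tug1 KD at Rest. At EPS 3h in control *Id1* (log2FC -2.46) and *Id3* (-2.04) had the largest decreases of the 4, with *Pax7* at -0.62 and *Myf5* at 0.33. With Tug1 KD at Rest *Id1* stood at -0.70, *Id3* at -0.54, *Myf5* at -0.50 and *Pax7* at 0.03. The summed level of 5 markers of cycling cells, none at 0, had group medians from 128.1 to 154.9 RPM. The part of these shifts in the results below was not tested. In bulk RNA, fewer cells of a type and less RNA per cell cannot be told apart.

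Promoter sequences are shown for 3 members that moved in different directions after EPS, *Polrmt* and *Polg*, which fell, and *Tfam*, which rose. Each is the 250 bases before the start of the canonical transcript, on the strand of the gene, in GRCm39 (*Polrmt* chr10:79582421-79582670, *Polg* chr7:79116111-79116360 and *Tfam* chr10:71074111-71074360, all minus strand). Capitals mark the letters CCGGAAG, the core bound by the nuclear respiratory factor GABP, read on either strand.
Polrmt: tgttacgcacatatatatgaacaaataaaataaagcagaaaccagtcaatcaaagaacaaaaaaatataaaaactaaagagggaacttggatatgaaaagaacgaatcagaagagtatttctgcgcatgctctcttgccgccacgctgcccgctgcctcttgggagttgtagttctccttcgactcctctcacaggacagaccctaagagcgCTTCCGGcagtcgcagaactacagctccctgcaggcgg
Polg: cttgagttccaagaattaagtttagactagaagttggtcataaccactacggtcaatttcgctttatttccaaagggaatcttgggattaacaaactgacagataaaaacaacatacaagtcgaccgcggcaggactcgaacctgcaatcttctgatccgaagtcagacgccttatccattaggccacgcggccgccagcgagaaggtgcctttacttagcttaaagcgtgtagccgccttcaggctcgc
Tfam: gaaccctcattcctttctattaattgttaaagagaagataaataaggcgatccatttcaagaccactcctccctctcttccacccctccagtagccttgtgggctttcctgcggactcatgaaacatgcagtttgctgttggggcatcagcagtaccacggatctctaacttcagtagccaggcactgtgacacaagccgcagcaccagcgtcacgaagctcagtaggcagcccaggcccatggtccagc
The GABP core lay 38 bases before the start of *Polrmt*, on the opposite strand, and was found in the same window of 4 of the 10 members (*Polrmt*, *Polg2*, *Twnk* and *Ssbp1*), against 9.91% of 12573 protein-coding promoters. At EPS 3h in control, 4 of these 4 members and 3 of the other 6 were lower, and a link between core and change was not tested. The NRF1 motif (GCGCA, any base, then GCGC) was in this window of none of the 10 members and in 5.63% of promoters, and 2 matches that overlap each other reached past the start of *Polrmt*. Neither AAGATGGCG (YY1; 0.883% of promoters) nor TGACGTCA (CREB; 2.13%) was found in the window of any member, on either strand. A match describes the letters and is not evidence of binding. Only these exact letters at the canonical start were searched, so a missing match does not show that a gene lacks a site.

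Per length, the components of the core transcription complex and the helicase were the most abundant members. In control myotubes at Rest, per kb of merged exons, *Polrmt* stood at 11.6 ± 0.994 RPM per kb (SD, n = 6), *Tfam* at 9.8 ± 0.413, *Twnk* at 7.99 ± 0.588 and *Tfb2m* at 5.36 ± 0.272. Below these came *Polg* at 4.25 RPM per kb, *Ssbp1* at 2.42, *Mterf4* at 1.72, *Polg2* at 1.22, *Tfb1m* at 0.666 and *Mterf2* at 0.543. The libraries of *Polrmt* and *Tfam*, of *Ssbp1* and *Mterf4*, and of *Tfb1m* and *Mterf2* overlapped, and those of the other neighbours in this order did not. The order of 6 of the 10 members was the same when the canonical transcript length was used in place of merged exons; *Mterf4*, whose merged exons span 6932 bases against 1366 in the canonical transcript, moved from place 7 to place 5.

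**Figure D1:**
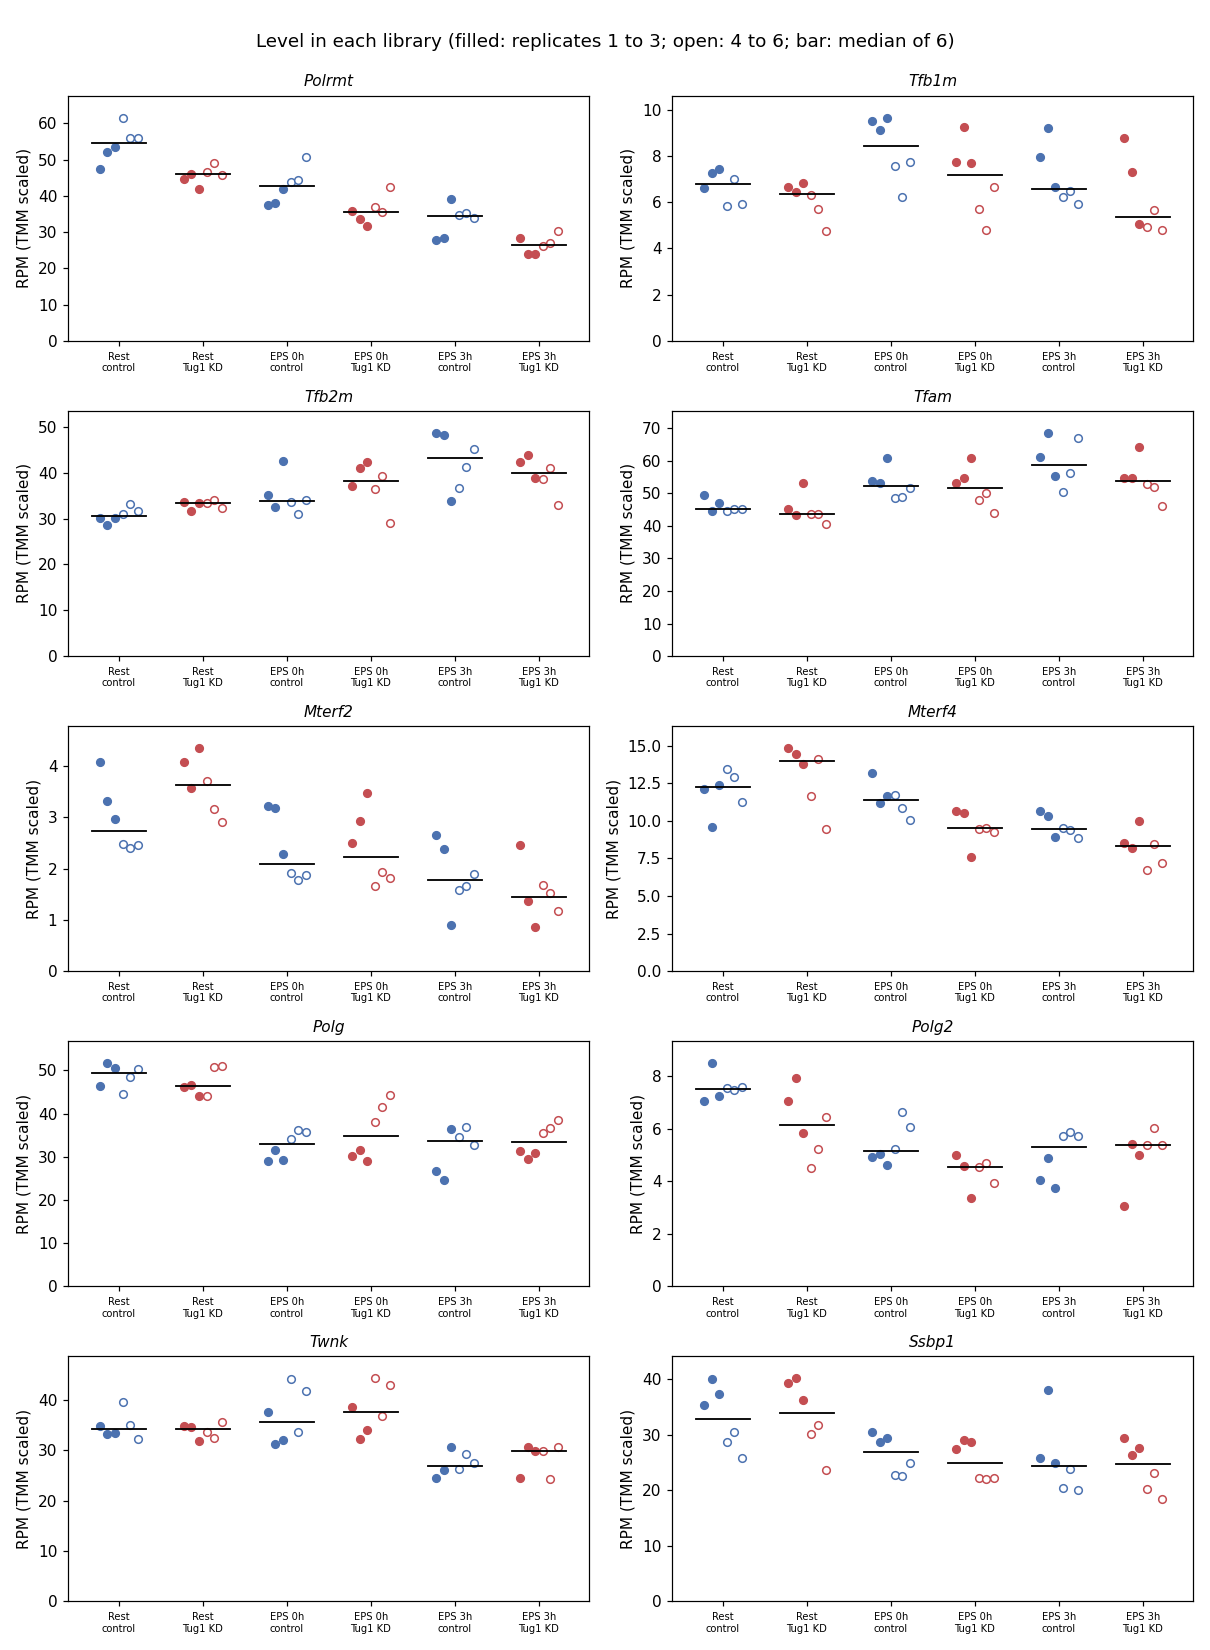
Level of each member (RPM, TMM scaled) in each of the 36 libraries by group, with control in blue, Tug1 KD in red, and a bar at the median of 6. *Polrmt* steps down from a median of 54.7 RPM in control at Rest to 26.6 RPM in Tug1 KD at EPS 3h, while *Tfam* steps up between Rest and EPS 3h in both arms.

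To ask how the machinery responded to contraction-like stimulation, EPS groups were compared with Rest within each LNA. In control myotubes at EPS 3h, 9 of the 10 members changed, 2 higher and 7 lower, where 26.1% of all genes tested were higher and 25.9% lower (52% in either direction). The median log2FC of the members was -0.36, against -0.02 over all genes tested. The higher members were the transcription factors *Tfb2m* and *Tfam*, and the lower ones included the RNA polymerase, both subunits of the DNA polymerase, the helicase and the single-strand binding protein.

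*Polrmt* ranged from 47.6 to 61.5 RPM with a median of 54.7 in control at Rest, from 37.5 to 50.7 with a median of 42.8 at EPS 0h, and from 27.9 to 39.2 with a median of 34.3 at EPS 3h. The EPS 3h libraries all lay below the Rest libraries, and those of EPS 0h fell between and overlapped both. The decrease was 1.64-fold at EPS 3h (log2FC -0.71, SE 0.0877, FDR 1.91e-08) and 1.27-fold at EPS 0h (log2FC -0.35, SE 0.0871, FDR 0.00162).

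*Tfam* rose from a range of 44.5 to 49.5 RPM (median 45.3) at Rest to 50.6 to 68.6 RPM (median 58.7) at EPS 3h in control, with no overlap. Its log2FC was 0.38 (SE 0.0855, FDR 0.000353), and it was 0.41 within replicates 1 to 3 and 0.36 within replicates 4 to 6. *Tfb2m* rose from 28.6 to 33.3 RPM (median 30.6) to 33.9 to 48.7 RPM (median 43.2), again without overlap, with a log2FC of 0.46 (SE 0.0911, FDR 6.67e-05). For comparison, 15.2% of all genes were higher without overlap in this contrast and 13.8% were lower, and among the members these were 2 and 4. *Tfb1m*, a close relative of *Tfb2m* whose product methylates the small mitochondrial ribosomal RNA, was not called, with a log2FC of 0.083 and a 95% interval from -0.218 to 0.384. That interval holds the 0.377 of *Tfam* and excludes the 0.46 of *Tfb2m*.

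Among the replication genes, *Polg* ran from 44.4 to 51.6 RPM (median 49.4) in control at Rest, from 29.0 to 36.1 (median 32.9) at EPS 0h and from 24.6 to 36.8 (median 33.6) at EPS 3h. Both EPS groups lay wholly below Rest, and they overlapped each other. Its log2FC was -0.57 at EPS 0h (SE 0.102, FDR 2.97e-05) and -0.61 at EPS 3h (SE 0.102, FDR 6.16e-06). *Polg2* fell alongside, by 0.48 on the log2 scale at EPS 0h (FDR 0.00756) and by 0.60 at EPS 3h (FDR 0.00075), from a median of 7.52 RPM to 5.14 and 5.31 RPM. *Twnk* took another course: its medians were 34.2 RPM at Rest, 35.7 RPM at EPS 0h and 26.9 RPM at EPS 3h. The log2FC of *Twnk* was 0.08 at EPS 0h (FDR 0.508) and -0.34 at EPS 3h (FDR 0.00166), and all its EPS 3h libraries lay below every Rest library. *Ssbp1* was lower at EPS 3h (log2FC -0.37, FDR 0.0311), but its libraries overlapped Rest, since replicate 2 of EPS 3h stood at 38.1 RPM. The FDR of *Ssbp1* ranged from 0.00199 to 0.0889 when single libraries were left out, and it was above 0.05 without any one of Rest control replicates 1 to 3 or EPS 3h control replicates 4 to 6.

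The remaining 2 members belong to the mitochondrial transcription termination factor family. *Mterf2*, which binds mitochondrial DNA, had the lowest level, between 0.909 and 4.08 RPM in control, and fell by 0.67 at EPS 3h (log2FC; SE 0.229, FDR 0.0135). *Mterf4*, which acts in assembly of the mitochondrial ribosome, fell by 0.32 (SE 0.109, FDR 0.0149), with EPS 3h libraries overlapping Rest for both genes. Within replicates 1 to 3 alone neither passed the threshold, with FDR 0.0647 for *Mterf2* and 0.364 for *Mterf4*.

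At EPS 0h in control, 3 members were lower (*Polrmt*, *Polg* and *Polg2*) and none higher, beside 18.4% of all genes lower and 38.9% in either direction, and the libraries of *Polg* and *Polg2* did not overlap Rest, as for 10.1% of all genes. With the replicate number as a block the count was 6, with *Tfb1m* (log2FC 0.30, FDR 0.0229) and *Tfam* (0.19, FDR 0.0245) higher and *Ssbp1* (-0.31, FDR 0.00146) lower in addition. A comparison of EPS 3h with EPS 0h, added after the data were seen, found *Polrmt* (log2FC -0.36, FDR 0.00296) and *Twnk* (-0.42, FDR 0.00083) lower and *Tfb2m* (0.28, FDR 0.0288) higher in control, where 9.67% of all genes were higher, 6.88% lower and 16.6% either. The libraries of *Twnk* did not overlap there, as for 2.62% of genes lower. The call on *Tfb2m* was lost in fits to each replicate set alone, with FDR 0.18 and 0.0667, with library size in place of TMM (FDR 0.164), and without any one of EPS 3h control replicates 1, 2 and 6 and EPS 0h control replicates 2, 4, 5 and 6. In Tug1 KD, where 7.13% of all genes were lower and 15.7% changed, *Polrmt* (-0.44, FDR 0.000443) and *Twnk* (-0.43, FDR 0.000649) were lower, both without overlap, as 2.37% of all genes were.

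**Figure D2:**
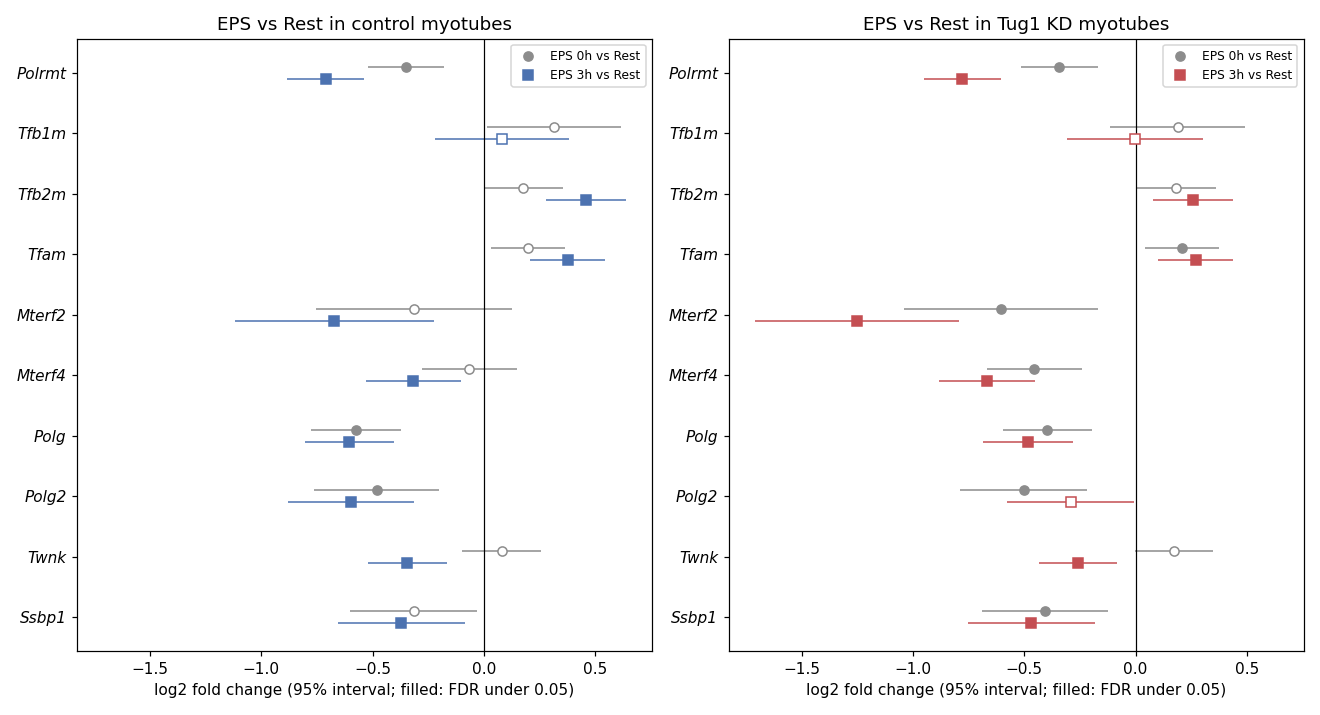
The log2FC of each member at EPS 0h and EPS 3h against Rest in control (left) and Tug1 KD (right) myotubes; lines are 95% intervals, and filled symbols passed an FDR of 0.05. *Polrmt*, *Polg* and *Mterf2* lie left of 0 and *Tfb2m* and *Tfam* right of 0 in both panels; each panel's EPS points share the Rest libraries.

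In Tug1 KD myotubes, 8 members changed at EPS 3h, 2 higher and 6 lower, beside 26.2% and 25.9% of all genes (52.1% in either direction), and 7 at EPS 0h, 1 higher and 6 lower, beside 24.4% and 21.2% (45.6%). At EPS 3h the libraries of 4 lower members (*Polrmt*, *Mterf2*, *Polg* and *Twnk*) did not overlap Rest, as for 14% of all genes. *Polrmt* ran from 41.8 to 49.2 RPM (median 46.0) at Rest and from 24.0 to 30.4 RPM (median 26.6) at EPS 3h, without overlap. This is a log2FC of -0.78 (SE 0.0884, FDR 3.02e-09), and it was -0.34 at EPS 0h (FDR 0.00169). *Mterf2* had the largest change of the 10, with a median of 3.64 RPM at Rest that fell to 1.45 RPM by EPS 3h with no overlap, and a log2FC of -1.25 (SE 0.233, FDR 2.62e-05).

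*Mterf4* fell by 0.67 at EPS 3h in Tug1 KD (FDR 3.89e-06) and by 0.46 at EPS 0h (FDR 0.000867), *Polg* by 0.48 (FDR 0.000149) and 0.40 (FDR 0.00179), and *Ssbp1* by 0.47 (FDR 0.00709) and 0.41 (FDR 0.0212). *Twnk* was lower at EPS 3h (-0.26, FDR 0.0156) and not called at EPS 0h (0.17, FDR 0.115), the same order of values as in control. *Polg2* was lower at EPS 0h (-0.50, FDR 0.00523), while at EPS 3h its log2FC was -0.29 with FDR 0.0924. The sets differed in sign there, with -0.61 (FDR 0.0196) within replicates 1 to 3 and 0.05 (FDR 0.818) within 4 to 6.

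*Tfam* and *Tfb2m* were again the higher members at EPS 3h, with log2FC 0.27 (FDR 0.00841) and 0.26 (FDR 0.0168). Both calls were lost with library size in place of TMM, at 0.11 and 0.10, a scaling that moved the median of all genes by -0.164 in Tug1 KD and -0.168 in control, and in control both calls were kept at lower values, 0.21 for *Tfam* (FDR 0.0371) and 0.29 for *Tfb2m* (FDR 0.00789). Within replicates 4 to 6 alone neither passed in Tug1 KD, with FDR 0.0578 for *Tfam* and 0.218 for *Tfb2m*. Both were also lost in Tug1 KD with no filter on low counts (FDR 0.368 and 0.4355), and *Tfb2m* with a filter of 10 counts in 6 libraries (FDR 0.0615). At EPS 0h *Tfam* was the single higher member (0.21, FDR 0.0449), but its FDR was above 0.05 without any one of Rest Tug1-KD replicates 1, 2, 4, 5 and 6 and EPS 0h Tug1-KD replicates 1, 2 and 3, the highest being 0.148. *Mterf2* at EPS 0h (-0.61, FDR 0.026) likewise had an FDR above 0.05 without any one of Rest Tug1-KD replicates 1 and 3 and EPS 0h Tug1-KD replicates 4 and 5, and *Ssbp1* without Rest Tug1-KD replicate 1 or 2. The count of 7 fell to 4 without Rest Tug1-KD replicate 1.

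Whether *Tug1* KD altered the response to EPS was tested with interaction terms. None of the 10 members passed at either time, beside 0% of all genes at EPS 0h and 0.00715% at EPS 3h. At an unadjusted p under 0.05, where 2.32% and 3.07% of all genes stood, edgeR counted 1 member at each time, *Mterf4*, whose log2FC differed by -0.39 at EPS 0h (95% interval -0.69 to -0.09) and by -0.35 at EPS 3h, with an FDR of 0.9999 in both. DESeq2 and limma-voom also called 0 members. The 95% intervals of the difference at EPS 3h ran from -0.31 to 0.18 for *Polrmt*, from -0.34 to 0.13 for *Tfam* and from -1.22 to 0.06 for *Mterf2*.

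The direct comparison of Tug1 KD with control called 1 member, *Polrmt*, at EPS 3h and in the average over states. Its level was lower in 6 of 6 Tug1 KD libraries than the control mean in every state. At EPS 0h the highest Tug1 KD library, at 42.55 RPM, lay close to the control mean of 42.73 RPM. *Mterf4* and *Polg2* were also lower in 6 of 6 at EPS 0h, and *Tfb2m* higher in 6 of 6 at Rest, none of them called. The share of all genes with such a count was not taken. The medians of control and Tug1 KD were 54.7 and 46.0 RPM at Rest, 42.8 and 35.7 RPM at EPS 0h, and 34.3 and 26.6 RPM at EPS 3h, and the ranges overlapped in each state. The log2FC was -0.25 at Rest (SE 0.087, FDR 0.0597), -0.25 at EPS 0h (SE 0.0875, FDR 0.0543) and -0.32 at EPS 3h (SE 0.0884, FDR 0.0137). Averaged over the 3 states it was -0.27 (SE 0.0506, FDR 5.425e-05), a 1.21-fold lower level. The call at EPS 3h was lost with the compared groups fitted alone (FDR 0.096) and with no filter on low counts (FDR 0.0955).

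By state, 0 members passed in edgeR at Rest (10% of all genes called) and at EPS 0h (14.3%), with 2 and 3 members at an unadjusted p under 0.05 beside 21.3% and 26.7% of all genes, and 1 member, *Polrmt*, was lower at EPS 3h (5.11% of genes lower, 11.5% called). In the average over states *Polrmt* was the 1 member called, where 17% of genes were lower and 33.1% called. DESeq2 called *Polrmt* also at Rest (FDR 0.0313) and EPS 0h (FDR 0.0288), limma-voom in neither, and a term for the replicate set in both (FDR 0.0127 and 0.0124). With the replicate number as a block at EPS 0h, *Polrmt* (FDR 0.0139) and *Mterf4* (log2FC -0.26, FDR 0.0482) were lower. The call at Rest was also made without any one of Rest control replicate 1, EPS 0h control replicate 6 and EPS 3h control replicate 3. At EPS 0h it was made without any one of EPS 0h control replicates 1 and 2, EPS 0h Tug1-KD replicate 6 and EPS 3h control replicates 1, 2 and 3. Within replicates 1 to 3 the log2FC of *Polrmt* averaged over states was -0.24 (FDR 0.0181), and within replicates 4 to 6 it was -0.29 (FDR 0.000262).

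Of the other members, *Polg2* came nearest in the average, at -0.20 (SE 0.0841, FDR 0.0635), followed by *Tfb1m* at -0.20 (SE 0.089, FDR 0.0841). With the replicate number as a block both were called lower, *Polg2* with FDR 0.0359 and *Tfb1m* with FDR 0.0108, and with a set term likewise (FDR 0.0459 and 0.0101). DESeq2 and limma-voom called *Polg2* (FDR 0.0436 and 0.0472) and not *Tfb1m* (FDR 0.0756 and 0.0607). The values of *Polg2* were unequal between the replicate sets, -0.06 (FDR 0.767) within 1 to 3 and -0.32 (FDR 0.00485) within 4 to 6. *Tfam* had an average log2FC of -0.07 with a 95% interval from -0.17 to 0.03, *Tfb2m* 0.04 from -0.06 to 0.14, *Polg* 0.05 from -0.06 to 0.17 and *Twnk* 0.02 from -0.08 to 0.12. Each of these intervals excludes the -0.27 of *Polrmt*, whose own interval ran from -0.37 to -0.17. Those of *Polg2* (-0.37 to -0.04) and *Tfb1m* (-0.37 to -0.02) hold it, and differences between members were not tested.

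**Figure D3:**
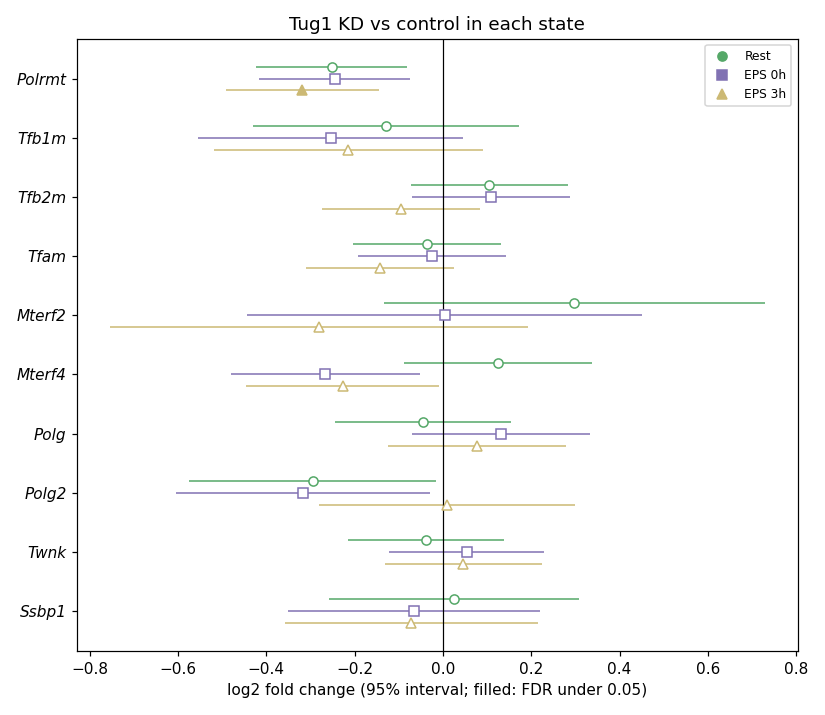
The log2FC of Tug1 KD against control for each member at Rest, EPS 0h and EPS 3h, with 95% intervals; the filled symbol passed an FDR of 0.05. *Polrmt* lies between -0.32 and -0.25 in the 3 states, and its interval excludes 0 in each, as those of *Polg2* do at Rest and EPS 0h and those of *Mterf4* at EPS 0h and EPS 3h.

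Because *Polrmt* fell where *Tfam* and *Tfb2m* rose, their ratios were formed within each library, where library scaling cancels. These ratios, with that of *Polg* to *Polg2*, were chosen after the data were seen. A difference of such a ratio restates the changes of its members, so the differences are given with no test. The *Tfam* to *Polrmt* ratio of RPM in control ran from 0.725 to 1.04 (median 0.833) at Rest, from 1.02 to 1.45 (median 1.25) at EPS 0h and from 1.41 to 2.42 (median 1.78) at EPS 3h. Every EPS 3h library lay above every Rest library, a difference of 1.09 on the log2 scale (SE 0.151), and the difference was 1.09 within each replicate set. In Tug1 KD it was 1.05 (SE 0.138). A trend with the GC content of transcripts, described below for 10 groups of genes, does not cancel in a ratio. At EPS 3h in control the median log2FC of all genes was 0.133 in the GC group of *Tfam* and 0.104 in that of *Tfb2m*. It was -0.336 in that of *Polrmt*, and the part of GC content in the ratios was not tested.

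The *Tfb2m* to *Polrmt* ratio stood higher in the Tug1 KD libraries than in the control libraries at Rest. It ran from 0.503 to 0.634 (median 0.565) in control and from 0.685 to 0.802 (median 0.714) in Tug1 KD, without overlap. The difference was 0.36 on the log2 scale (SE 0.0574) and 0.36 and 0.35 within the replicate sets. How many pairs of genes part the libraries in this way was not counted. Neither gene was called alone in edgeR at Rest, with *Polrmt* at a log2FC of -0.25 (FDR 0.0597) and *Tfb2m* at 0.11 (FDR 0.59). In this contrast the median log2FC of all genes was 0.00626 in the GC group of *Tfb2m* and -0.127 in that of *Polrmt*. The part of GC content in this ratio was not tested. *Cnst*, which shares 531 exon bases with *Tfb2m* on the opposite strand, was also higher in Tug1 KD at Rest (log2FC 0.50, FDR 0.000118), and its part in this ratio was not tested. The difference of the *Tfb2m* to *Polrmt* ratio was 0.35 at EPS 0h (SE 0.168) and 0.23 at EPS 3h (SE 0.191), where the libraries overlapped. The ratio of *Polg* to *Polg2*, catalytic to accessory subunit, had medians in control of 6.52, 6.09 and 6.16 at Rest, EPS 0h and EPS 3h. Its EPS differences within each LNA lay between -0.19 (SE 0.177) and 0.0763 (SE 0.176) on the log2 scale. At EPS 0h the ratio stood higher in Tug1 KD by 0.43 (SE 0.133), with 0.202 and 0.665 within the replicate sets, and the libraries overlapped. *Milr1*, which shares 509 exon bases with *Polg2* on the opposite strand, was also lower there (log2FC -0.385, FDR 0.036). Its part in this ratio was not tested.

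**Figure D4:**
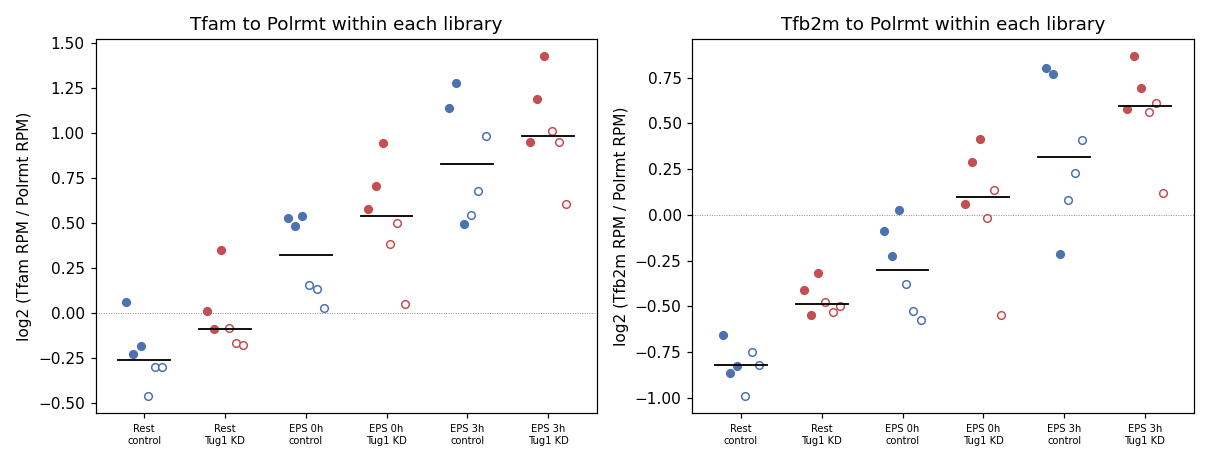
The log2 ratio of *Tfam* to *Polrmt* (left) and *Tfb2m* to *Polrmt* (right) within each of the 36 libraries, by group; filled points are replicates 1 to 3, open points 4 to 6, and bars are medians. In control the mean log2 ratio of *Tfam* to *Polrmt* climbs from -0.24 at Rest to 0.31 at EPS 0h and 0.85 at EPS 3h.

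Correlations between members are given over the 36 libraries, which share their groups and replicate sets. On log2(RPM + 0.5), Pearson's r was 0.81 between *Tfb2m* and *Tfam* and 0.738 between *Polrmt* and *Polg*, while *Tfam* and *Polg* stood at -0.846 and *Polrmt* and *Tfb2m* at -0.763. After centring within group and replicate set, *Tfb2m* and *Tfam* still stood at 0.659, *Polrmt* and *Polg* at 0.664, and *Tfb2m* and *Polg* at -0.654. Over all libraries *Twnk* and *Polg2* also went with *Polrmt* (0.574 and 0.573) and against *Tfb2m* (-0.584 and -0.535), and *Mterf4* stood at 0.648 with *Polrmt*. After centring the values with *Polrmt* were 0.282 for *Twnk*, -0.251 for *Polg2* and -0.0903 for *Mterf4*. *Tfb1m* stood at -0.00711 with *Polrmt* and 0.394 with *Tfam* over all libraries, and *Ssbp1* at -0.0884 with *Tfam*. *Mterf2*, at 0.472 with *Polrmt* over all libraries, stood at -0.462 after centring. *Polg* and *Polg2*, whose products form 1 enzyme, had an r of 0.624 over all libraries and -0.0186 after centring. Across all genes tested, the pattern most like that of *Polrmt* was *Depp1* (r = 0.961), that of *Tfam* was *Rsl1d1* (0.946), also after centring (0.863), and that of *Tfb2m* was *Mtpap*, the mitochondrial poly(A) polymerase (0.925). *Polg* was most like *Zfp523* (0.961), *Ssbp1* like *Timm21* (0.896), *Twnk* like *Pax7* (0.848), and *Mterf2* like *AW146154* (0.908). For *Tfb1m*, *Mterf4* and *Polg2* the nearest genes were *Sumo2* (0.842), *Ndufaf1* (0.819) and *Tlcd1* (0.803). After centring, every member but *Tfam* had another nearest gene, such as *Krcc1* (0.921) for *Tfb2m* and *Tmem214* (0.859) for *Polrmt*.

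The GC content of transcripts moved with both contrasts. At EPS 3h in control, the median log2FC of all genes fell from 0.27 in the lowest of 10 equal groups of genes by GC content to -0.34 in the highest. *Polrmt*, with 61% GC, lies in the highest group, and its -0.71 stood at percentile 17.6 of that group, while *Tfb2m* and *Tfam*, at 47.2% and 44.9%, stood at percentiles 73.2 and 67.8 of theirs. *Mterf2* (38.8% GC) and *Ssbp1* (41.8%) fell although the median of their GC group was 0.27, which places them at percentiles 7.1 and 14.4. In the average over states of Tug1 KD against control, the highest group had a median of -0.11 and *Polrmt* stood at percentile 21 of it. The part of GC content in these results was not tested.

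**Figure D5:**
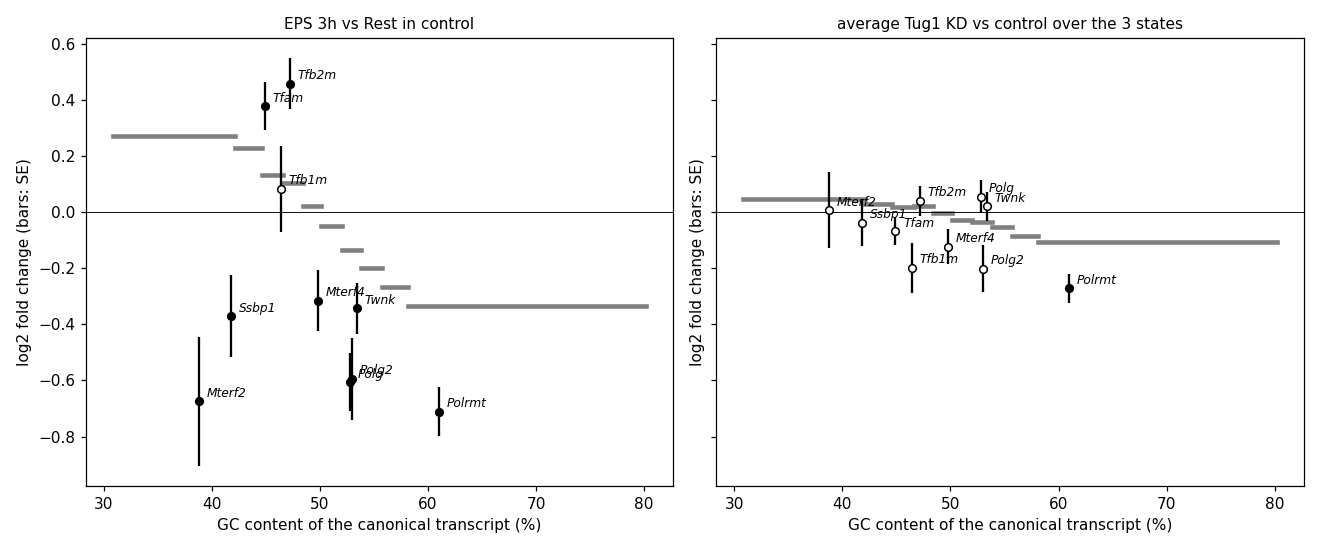
The log2FC of each member with its SE against the GC content of its canonical transcript, at EPS 3h against Rest in control (left) and for Tug1 KD averaged over states (right); grey segments are the medians of all genes in each of 10 groups by GC content. *Polrmt*, at 61% GC, lies below the grey median of its group in both panels, -0.34 on the left and -0.11 on the right.

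The exons of 8 members overlap those of a gene on the opposite strand, and *Polrmt* and *Tfam* have no such partner. The libraries were stranded, but the strand setting of the counting is not given in the sources used here, so reads of *Tfb1m* and *Tiam2*, *Tfb2m* and *Cnst*, *Mterf2* and *Tmem263*, *Mterf4* and *Sned1*, *Polg* and *Fanci*, *Polg2* and *Milr1*, *Twnk* and *Mrpl43*, and *Ssbp1* and *Or9a7* may be shared. At EPS 3h in control, *Cnst* was higher (log2FC 0.28, FDR 0.00827) as *Tfb2m* was, and it was higher with Tug1 KD averaged over states (0.62, FDR 3.64e-12), where *Tfb2m* stood at 0.04. At EPS 3h in control *Mrpl43* was lower (-0.46, FDR 0.0371) as *Twnk* was. *Fanci* was higher (0.49, FDR 0.0465) where *Polg* was lower. With Tug1 KD averaged over states *Milr1* was lower (-0.35, FDR 0.000219), where *Polg2* stood at -0.20 (FDR 0.0635). *Tiam2* was higher in that average (0.20, FDR 0.031), where *Tfb1m* stood at -0.20 (FDR 0.0841). The part of shared reads in these values was not tested.

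Other genes of the pathway were taken from lists that held none of the members. Of 22 further genes of mitochondrial DNA replication and nucleotide supply, 3 were higher and 8 lower at EPS 3h in control, with a median log2FC of -0.10. This is 50% of the list, near the 52% of all genes called. *Mgme1*, an exonuclease that processes replication ends, rose by 0.85 (FDR 1.75e-06), and *Lig3*, the ligase of mitochondria, fell by 0.53 (FDR 4.57e-06), *Exd2* by 0.37 and *Tk2*, a thymidine kinase, by 0.47. Of 23 genes of transcription and RNA processing, 6 were higher and 5 lower, and this 47.8% is near the share over all genes. *Trmt10c*, a subunit of the enzyme that cuts transfer RNAs from the primary transcript, rose by 1.03 (FDR 4.6e-10), with *Ptcd2* at 0.86 and *Mtpap* at 0.78. *Mterf1a* and *Mterf1b* fell by 1.14 and 1.13 but are near-identical copies whose reads cannot be assigned with certainty.

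Among 13 regulators upstream of these genes, 6 were higher and 2 lower at EPS 3h in control, or 61.5% beside 52% of all genes. The GABP subunits *Gabpa* (log2FC 1.17, FDR 6.44e-11) and *Gabpb1* (0.69, FDR 3.45e-06) rose, with *Yy1* at 0.57 and *Creb1* at 0.60. With Tug1 KD averaged over states, 33.1% of all genes were called, against 23.1% of the regulators, 31.8% of the replication genes and 26.1% of the transcription and RNA processing genes. Among the regulators 1 was higher, *Ppargc1b* (0.49, FDR 1.84e-05), and 2 lower, *Myc* (-0.25, FDR 0.00279) and *Pprc1* (-0.31, FDR 0.015). In the same contrast 4 replication genes were higher and 3 lower, led by *Samhd1*, which degrades nucleotides (-0.74, FDR 6.98e-16), the nuclease-helicase *Dna2* (-0.72, FDR 2.76e-08) and *Endog* (-0.60, FDR 6.54e-06), with *Mpv17* higher (0.29, FDR 2.3e-05). Of the transcription and RNA processing genes 1 was higher, *Lrpprc* (0.24, FDR 0.00497), and 5 were lower, including *Grsf1* (-0.18, FDR 0.00109), *Tbrg4* (-0.21, FDR 0.00211) and *Fastkd3* (-0.23, FDR 0.00249).

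The products of this machinery are the mitochondrially encoded transcripts, of which 12 passed the filter. In control 2 of the 12 (16.7%) were called at EPS 0h, below the 38.9% of all genes, and 5 (41.7%) at EPS 3h, below the 52%. At EPS 3h, 2 were higher, both ribosomal (*mt-Rnr1* log2FC 1.33, FDR 9.14e-05; *mt-Rnr2* 1.08, FDR 0.00376), and 3 lower, *mt-Nd1* (-1.04, FDR 0.000625), *mt-Nd5* (-0.82, FDR 0.0139) and *mt-Cytb* (-0.43, FDR 0.0465). In RPM, *mt-Nd1* ran from 936.5 to 1685 at Rest and from 434.5 to 823.4 at EPS 3h, without overlap. With Tug1 KD against control 0 of the 12 were called at Rest, EPS 0h or EPS 3h, beside 10%, 14.3% and 11.5% of all genes. In the average over states 0 were called, beside 33.1% of all genes. The libraries were poly-A selected, so these levels are of polyadenylated mitochondrial RNA.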

How the data were processed

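The authors trimmed the reads with fastp 0.14.1, aligned them to GRCm39 with STAR 2.5 and deposited whole-number counts per gene for 36 poly-A selected, stranded libraries. Genes without a name (1492) hold 0.0327% of the counts. Groups and replicate numbers came from the sample titles, and no library was left out. A chi-square comparison of library pairs within groups gave at least 3.984 per degree of freedom, so none was a duplicate.

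From the deposited counts, 13995 genes at 1 RPM or more in 12 or more libraries were tested in R 4.3.3 with edgeR 4.0.16 (TMM, quasi-likelihood, robust), with all 6 groups in one fit and Benjamini-Hochberg FDR over all genes tested; under 0.05 was called. The study used limma-voom, which is an alternative here. The SE is the log2FC divided by the root of F, and RPM values are TMM scaled. Scripts were tested on simulated counts. Alternatives were DESeq2 1.42.0, limma-voom (limma 3.58.1), other scalings and filters, FDR under 0.01, the compared groups alone, each replicate set alone, each library left out, and terms for replicate set or number. Same-numbered libraries deviated together (every r over 0.1) in 5 of the 7 comparisons between 2 groups that were planned. In Tug1 KD against control at Rest and EPS 3h against Rest in Tug1 KD the smallest r was -0.0962 and 0.0724. Same-numbered libraries also share a replicate set, so this check cannot tell pairing by number from the difference between the sets. The sets 1 to 3 and 4 to 6 were read from the data, and which experiment a number belongs to is not given in the sources used here.

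All 10 members were named in every comparison. From each other list, up to 4 genes with the smallest FDR were named among those past 0.05 in the average Tug1 KD comparison or in both EPS comparisons in control; *mt-Nd1*, *mt-Nd5*, *mt-Cytb* and *Mterf1b* were named after their values were seen. The nearest gene in pattern is that with the highest Pearson r. Members, lists and tests were chosen with earlier results of these data known. Coordinates, lengths and sequences are from GRCm39, the build of the counts, with a later annotation than theirs (GENCODE), and GC content was found for 99.6% of genes tested.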

Additional observations from a re-analysis of the deposited data

Results flagged for a closer look

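In 60 series of 6 libraries (10 members in 6 groups), 4 held a library whose gap to its nearest neighbour, over the whole range, was above Dixon's 95% critical value, and chance gives about 1 in 20. *Tfb2m* stood at 42.69 RPM in EPS 0h control replicate 3, with the next library at 35.2 RPM; without it the log2FC of EPS 0h against Rest in control was 0.11 rather than 0.18, neither called. *Tfam* stood at 53.13 RPM in Rest Tug1-KD replicate 3, next to 45.1 RPM, and without it the rise at EPS 3h in Tug1 KD was 0.32 (edgeR FDR 0.00231). *Polg2* stood at 3.066 RPM in EPS 3h Tug1-KD replicate 1, below 5.001 RPM, and without it its log2FC against Rest was -0.18 (edgeR FDR 0.284) rather than -0.29. *Ssbp1* stood at 38.07 RPM in EPS 3h control replicate 2, above 25.74 RPM, and without it the decrease at EPS 3h in control was -0.52 (edgeR FDR 0.00199) rather than -0.37, while the difference between Tug1 KD and control at EPS 3h was 0.08 rather than -0.07.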

How the results depend on the processing

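No call of a member changed direction under any alternative: of 1430 values, 1338 kept their side of the threshold, 45 lost it and 47 gained it, and with single libraries left out these were 4269, 27 and 24 of 4320. For Tug1 KD against control at Rest, the count of members called (0) became 1 with DESeq2, library size only, upper quartile scaling, the replicate block, the set term and the compared groups alone, and 2 within replicates 4 to 6. At EPS 0h it (0) became 1 with DESeq2, library size only, upper quartile scaling, the set term and replicates 4 to 6, and 2 with the replicate block. At EPS 3h it (1) became 0 with no filter, the compared groups alone, replicates 1 to 3 and an FDR under 0.01. In the average it (1) became 2 with DESeq2, limma-voom, library size only and upper quartile scaling, and 3 with the replicate block, the set term and replicates 4 to 6; the compared groups alone were not run for it. For EPS 0h in control the count (3) became 6 with the block, the set term and the compared groups alone. In Tug1 KD the count at EPS 0h (7) became 3 within replicates 4 to 6 and 4 at an FDR under 0.01, and at EPS 3h (8) it became 5 within replicates 4 to 6. For EPS 3h against EPS 0h the counts of 3 and 2 became 0 and 1 within replicates 1 to 3. On canonical lengths 6 of the 10 members kept their place in the level order. The cause of these changes was not tested, beyond the fewer libraries of the sets.

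With 1 library left out, counts ran from 0 to 1 for Tug1 KD at Rest and at EPS 0h, 1 to 1 at EPS 3h, 1 to 2 in the average, 3 to 4 for EPS 0h in control, 8 to 9 for EPS 3h in control, 4 to 8 and 8 to 9 for EPS 0h and EPS 3h in Tug1 KD, 0 to 0 for both interactions, and 2 to 3 for EPS 3h against EPS 0h in each arm. The replicate block changed no other count by over 1.5 times. Library size alone split all genes called at EPS 3h into 2675 higher and 5526 lower in control, against 3651 and 3626, and into 2802 and 5671 in Tug1 KD, against 3668 and 3625; at EPS 0h the splits were 2324 and 3479 in control, and 2843 and 4160 in Tug1 KD. *Mterf2*, with 15 to 81 counts per library, had the fewest counts of the members, and the parts of depth and of the spread between wells in its SE were not separated.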
